A study of Canis lupus familiaris with 14 samples.

Results

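The genes described here varied widely among 7 canine osteosarcoma (OSA) tumors and less among the bones of the same 7 dogs. They are 200 of the 30951 genes in the count table, selected on their spread. Levels are in CPM, a count divided by the total of its library and multiplied by 1000000, and the 11199 genes with a mean of at least 5 CPM in the 7 bones were kept. For each of these genes the standard deviation (SD) of log2(CPM + 1) over the 7 bones was subtracted from the SD over the 7 tumors, and the 200 largest differences define the members. The dogs, A to G, were neutered adults that underwent limb amputation for OSA before any chemotherapy, so the tumor and bone groups shared the animals, the operation and the lack of drug treatment. Each dog gave 1 tumor library and 1 bone library, the bone being the second phalanx (Phalanx P2) of the amputated leg, at least a joint away from the tumor and, per the study's methods, freed of marrow. Bone was prepared and extracted by a separately published protocol, and tumor pieces were flash frozen and homogenized in an extraction reagent. Preparation therefore cannot be told apart from tissue. Dogs A and F were Golden Retrievers, D and G Greyhounds, B a Rottweiler, C a Doberman Pinscher and E a Great Pyranees. The tumors of A, C, E and F lay in the distal radius, that of B in the distal femur, D in the proximal humerus and G in the distal tibia. With 1 library per tumor, breed, sex, site and the piece of tumor sampled cannot be told apart from the tumor itself.

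Bone is built by osteoblasts, which secrete and mineralize a collagen matrix and in part become the osteocytes enclosed in it, and it is resorbed by osteoclasts, large multinucleated cells of the macrophage lineage that release acid and proteases onto the matrix. OSA is a tumor of bone-forming cells, and its tissue can hold osteoid, cartilage and fibrous matrix, osteoclasts, vessels and immune cells in proportions that differ from tumor to tumor. A gene that is more spread out among tumors than among bones can therefore belong to the tumor cells or to any of the cells around them, and bulk RNA does not separate these.

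Total counts were between 22564544 and 34479429 in bone and between 18650945 and 32887213 in tumor. The share of counts taken by a single gene differed between libraries: ENSCAFG00000017018 took 29.5% of the counts of bone E, 26.3% of tumor E and 17.5% of tumor G. These libraries and tumor A had the lowest composition factors of the trimmed mean of M values (TMM), 0.641 in bone E, 0.695 in tumor A, 0.722 in tumor E and 0.772 in tumor G, and by CPM the median gene of the 11199 lay below its level in the bone of the same animal in dog A (log2 difference -0.60) and dog G (-0.46), against -0.10 and -0.07 on the TMM scale. Per the study, the RNA of tumor A and of bone B was the least intact. Bone held its own markers, with BGLAP (osteocalcin, secreted by osteoblasts) at 239 to 1559.6 CPM, while the marrow gene MPO, the peroxidase of neutrophil granules, stayed at or below 8.28 CPM in every bone. MPO was the only gene identified from a list of 10 neutrophil and marrow myeloid genes. The bones also held adipocyte RNA, with 13 adipocyte genes summing to 469.7 to 4463 CPM. A symbol was paired with 58 of the 200 members through names in the study's supplementary tables, which mostly list genes called there, so the other 142 are known here by Ensembl identifier only.

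Over the members, the SD of log2(CPM + 1) was between 1.32 and 5.19 in the tumors (median 1.86) and between 0.138 and 3.03 in the bones (median 0.537). The 11199 genes had a median SD of 0.626 in tumors and 0.431 in bones, and 80.2% of them were more spread in tumors than in bones. The median member was thus also more spread among bones than the median gene, and its bones were alike only relative to its tumors. This spread chose the members and is given as a description. The difference of SDs ran from 2.997 for WIF1 down to 1.10, and the threshold separated genes of nearly the same value: ENSCAFG00000001246 and GAS1 were just inside at 1.1002, and ENSCAFG00000018931 and ENSCAFG00000001394 just outside at 1.0994 and 1.0976. Members were not the low-count part of the table, since their mean bone level had a median of 30.5 CPM, with a range of 5.02 to 3773, next to 29.8 CPM for all 11199 genes. The bones were second phalanges of the leg that held the tumor, a hindlimb in dogs B and G and a forelimb in the others, and the tumors came from 4 sites; the part of the site in the spread was not tested.

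**Figure D1:**
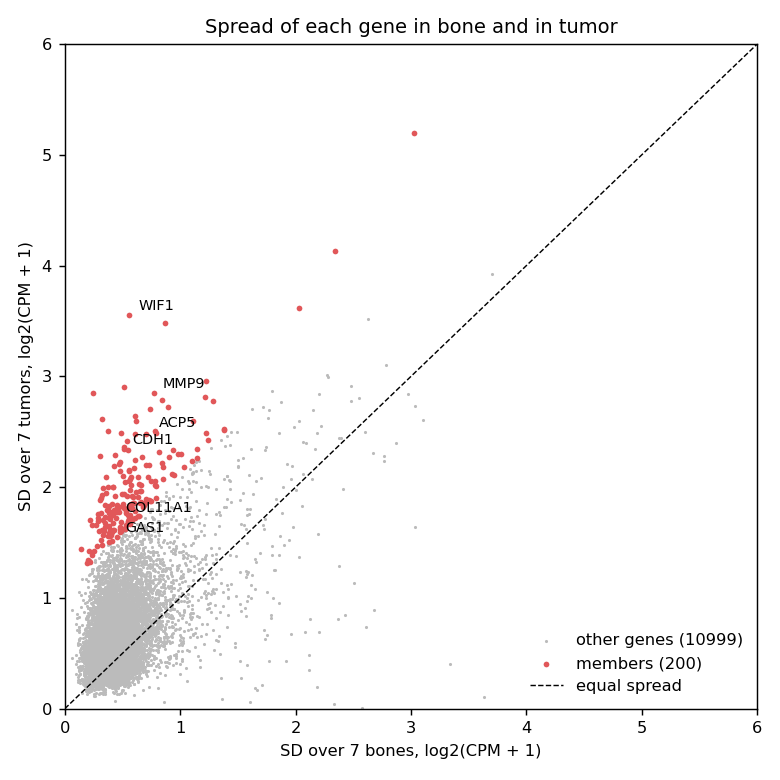
Each point is 1 of the 11199 genes, with the SD of log2(CPM + 1) over the 7 bones on the horizontal axis and over the 7 tumors on the vertical axis. The 200 members (red) lie farthest above the dashed line of equal spread; their tumor SD is between 1.32 and 5.19, against a median of 0.626 for all genes plotted.

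Few of the members differed between tumor and bone as groups. With edgeR's quasi-likelihood test, with dog and tissue in the model, 3 members were called higher and 5 lower in tumor where a call needed a fold change above 2, a base mean above 10 and a Benjamini-Hochberg false discovery rate (FDR) below 0.05. Of all 27655 genes tested, 1.35% were called higher and 1.79% lower, and of the 11199 genes with the same bone level as the members, 1.74% and 3.71%. The members' 1.5% and 2.5% were thus near the background, and since the spread that selected them enters the same test, nothing more is read from these counts. The median log2 fold change was -0.59 over the members and -0.05 over the 11199 genes. The counts depended on the test: without the dog as a replicate block 7 members were called higher and 2 lower, and the DESeq2 Wald test called 9 higher and 54 lower (27.0% of members), where 2.79% and 7.33% of the 11199 genes were called. Leaving out dog C gave 12 lower calls, leaving out dog A or dog E gave 3, and leaving out dog G gave 1 in each direction.

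The 3 members called higher were a matrix collagen and a pair of genes of cell division. COL11A1, a chain of the fibrillar collagen XI that seeds collagen fibrils, was between 21.7 and 58.6 CPM in the 7 bones (median 32.6) and, in the tumors, 252 in A, 282 in B, 20.2 in C, 467 in D, 868 in E, 205 in F and 507 in G (log2 fold change 3.17, SE 0.58, FDR 0.0157). It was above every bone in 6 tumors, and the tumor of dog C, at 20.2 CPM, was below all bones. ASPM, which organizes the spindle poles in mitosis, was between 3.36 and 8.47 CPM in the 7 bones (median 5.01) and 8.45 in A, 38.6 in B, 50.7 in C, 42.3 in D, 6.39 in E, 116 in F and 9.91 in G in the tumors (log2 fold change 2.38, SE 0.42, FDR 0.0135). KIF11, the kinesin motor that separates the spindle poles, was between 2.02 and 7.87 CPM in the 7 bones (median 5.32) and 4.75 in A, 45.3 in B, 53.5 in C, 46.03 in D, 8.45 in E, 169 in F and 17.9 in G in the tumors (log2 fold change 2.77, SE 0.52, FDR 0.0177). Both division genes were highest in tumor F and, among tumors, lowest in A and E. The call of COL11A1 was lost without dog A or dog G (FDR 0.0521 and 0.0523), and that of KIF11 without dog B, C, D or G (FDR 0.0503 to 0.0582). KIF11 was 1 of 12 genes of a list of 18 G2 and M phase genes that passed the bone level, and the only member; 17 of the 17 list genes that could be identified were called higher in tumor. The identified genes of this and the later lists are mostly those the study called in these libraries, so counts of list genes called are not independent evidence of a direction.

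The 5 members called lower included the receptors of the leptin and leukemia inhibitory factor signals. CLDN11, a claudin of tight junctions, had 56.5 to 164 CPM in the bones (median 119) and 6.09 in A, 4.13 in B, 92.8 in C, 1.61 in D, 4.62 in E, 14.1 in F and 3.27 in G in the tumors (log2 fold change -3.91, SE 0.54, FDR 0.00541). Tumor C alone was within the range of the bones for this gene. LEPR, the leptin receptor and a mark of skeletal stromal cells, had 37.5 to 229 CPM in the bones (median 123) and 2.35 in A, 2.52 in B, 69.4 in C, 91.8 in D, 13.3 in E, 30.8 in F and 2.95 in G in the tumors (log2 fold change -3.13, SE 0.63, FDR 0.025), with C and D within the bones. LIFR, the receptor of leukemia inhibitory factor, was between 56.9 and 222 CPM in the 7 bones (median 87.8) and 17.8 in A, 11.5 in B, 233 in C, 46.2 in D, 15.7 in E, 32.5 in F and 4.07 in G in the tumors (log2 fold change -1.96, SE 0.45, FDR 0.0414), and tumor C was above all bones and the other 6 below them. LTBP2, a matrix protein of the latent TGF-beta binding family, was between 436 and 927 CPM in the 7 bones (median 629.9) and 24.9 in A, 144 in B, 1012 in C, 108 in D, 115 in E, 127 in F and 77.5 in G in the tumors (log2 fold change -2.29, SE 0.51, FDR 0.0378), again with tumor C above every bone and the other 6 below. ENSCAFG00000018405 was the fifth, at 56.7 to 188 CPM in the bones and 7.27 in A, 5.50 in B, 85.1 in C, 35.3 in D, 5.200 in E, 1.305 in F and 2.10 in G in the tumors (log2 fold change -3.80, SE 0.71, FDR 0.0173). CLDN11 and ASPM were called under each of the 12 alternatives of test and omitted dog, whereas LEPR, LTBP2 and LIFR were not called without the replicate block (FDR 0.0653, 0.106 and 0.269). LIFR and LTBP2 each lost the call when any dog but C was left out, ENSCAFG00000018405 without A, B or G, and LEPR without E, F or G.

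Complete separation of the tissues was as rare among the members. TFPI2, an inhibitor of serine proteases in the matrix, was the 1 member with every tumor above every bone, where 0.643% of the 11199 genes had such a separation. Its level was between 5.65 and 20.9 CPM in the 7 bones (median 16.6) and 23.4 in A, 45.4 in B, 857 in C, 147 in D, 35.1 in E, 432 in F and 167 in G in the tumors (log2 fold change 3.21, SE 0.83, FDR 0.0637), a spread of levels among tumors that all lay above bone. ITGBL1, a secreted protein related to integrin beta subunits, was the 1 member with every tumor below every bone, where 1.64% of the genes were so. It was between 134 and 266 CPM in the 7 bones (median 166) and 26.99 in A, 44.9 in B, 4.13 in C, 11.6 in D, 109 in E, 2.09 in F and 87.6 in G in the tumors (log2 fold change -2.96, SE 0.81, FDR 0.0756). On the TMM scale ASPM also had every tumor above every bone, and ITGBL1 no longer had every tumor below.

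Which tumors held less or more of the members was counted against the bone of the same dog, on log2(CPM + 1), where a difference of 1 is 2-fold. Of the 1400 pairs of a member and a dog, 591 were at least 2-fold lower and 307 at least 2-fold higher in tumor. The tumors of dogs G, A, F and B held lower levels of the largest numbers of members, and only tumor C had more members higher than lower, which held by CPM and not on the TMM scale. In dog G, 24 members were at least 2-fold higher and 113 at least 2-fold lower than in bone, against 3.33% and 25.0% of the 11199 genes. In dog A, 21 members were at least 2-fold higher and 109 at least 2-fold lower, against 3.4% and 28.9% of the 11199 genes. These 2 tumors had the fewest higher members, and both have low composition factors; on the TMM scale the counts were 28 and 102 in G and 30 and 91 in A. In dog F, 37 members were at least 2-fold higher and 92 at least 2-fold lower, against 10.9% and 22.8% of the 11199 genes. In dog B, 59 members were at least 2-fold higher and 88 at least 2-fold lower, against 9.34% and 10.7% of the 11199 genes. Tumor B thus had both many lower and many higher members. In dog C, 73 members were at least 2-fold higher and 66 at least 2-fold lower, against 11.4% and 10% of the 11199 genes, and on the TMM scale the counts were 67 and 69. In dog D, 56 members were at least 2-fold higher and 61 at least 2-fold lower, against 7.56% and 12.1% of the 11199 genes. In dog E, 37 members were at least 2-fold higher and 62 at least 2-fold lower, against 7.38% and 4.75% of the 11199 genes; against the mean of the 7 bones in place of its own, 23 members were higher in tumor E. Dog E had the most members within 2-fold of bone, 101, and by the shares given here also the most of the 11199 genes. Every share of members in these counts exceeded the share of the background, as the selection on spread makes likely, and nothing is read from the excess.

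**Figure D2:**
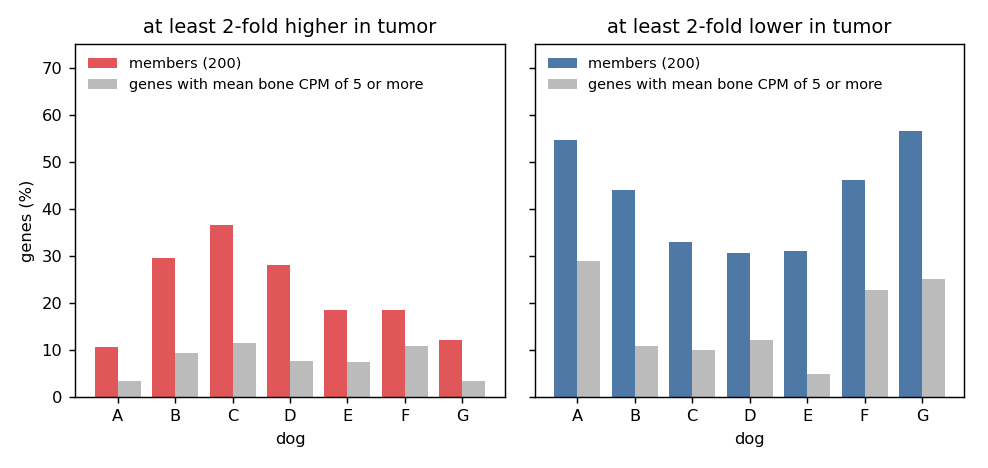
Bars give the percentage of the 200 members (color) and of the 11199 genes with a mean bone level of 5 CPM or more (gray) that were at least 2-fold higher (left) or lower (right) in each tumor than in the bone of the same dog, by dog. Lower members were most frequent in dogs G (56.5%) and A (54.5%), and higher members in dog C (36.5%).

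Most members went both ways. At least 2-fold higher in some tumor and at least 2-fold lower in another were 141 of the 200 members, against 13.6% of the 11199 genes. The selection on spread makes this likely, and nothing is read from the excess. Another 43 members were only lower and 16 only higher, and 0 members were 2-fold lower in all 7 tumors or 2-fold higher in all 7. A single tumor accounted for all the higher values of 63 members, and a single tumor for all the lower values of 28. For the 43, 16, 63 and 28 members, and the 0 in all 7, no share of the 11199 genes was computed. Whether these counts are particular to the members was therefore not tested. The highest of the 7 tumors was C for 66 members, D for 38, B for 35 and F for 26, where of the 11199 genes 19% were highest in C, 21.0% in D, 16.6% in B and 30.4% in F. As shares of the 200 members, D and B were near the background, C was above it and F below it. The lowest was F for 50 members, G for 49 and A for 44, against 12.2%, 15.8% and 37.2% of the 11199 genes, and on the TMM scale the lowest was F for 55 members, G for 45 and A for 34. By CPM the shares of F and G among the 200 were above the background and that of A was below it.

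Members that were high and low in the same tumors were grouped by average linkage on 1 minus the Pearson correlation of log2(CPM + 1) over the 7 tumors, with the tree divided at 0.5. Of 13 groups, 6 had at least 8 members and together held 175 of the 200. The groups were built from these 7 values, so their profiles are a description, and with 7 libraries that share depth and composition a high correlation between a pair of genes is easily reached. Between a pair of members of the same group the median correlation over tumors was 0.724 to 0.764, against 0.121 over all pairs of members. Over the 7 bones, which the grouping did not use, the median within groups was 0.167 to 0.562 by CPM. On the TMM scale it was 0.485 in group 1 over the bones but -0.0102 to 0.196 in the other 5 groups, while the tumor values stayed between 0.673 and 0.817. The values over tumors are high by construction. Over all pairs of members the median over the bones was 0.175 by CPM and 0.069 on the TMM scale, so groups 4 (0.188 by CPM) and 6 (0.167) were close to any pair of members there. The grouping itself depended on the linkage: with complete linkage 10 groups of at least 8 members were formed and 30.8% of the pairs that shared a group still did.

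**Figure D3:**
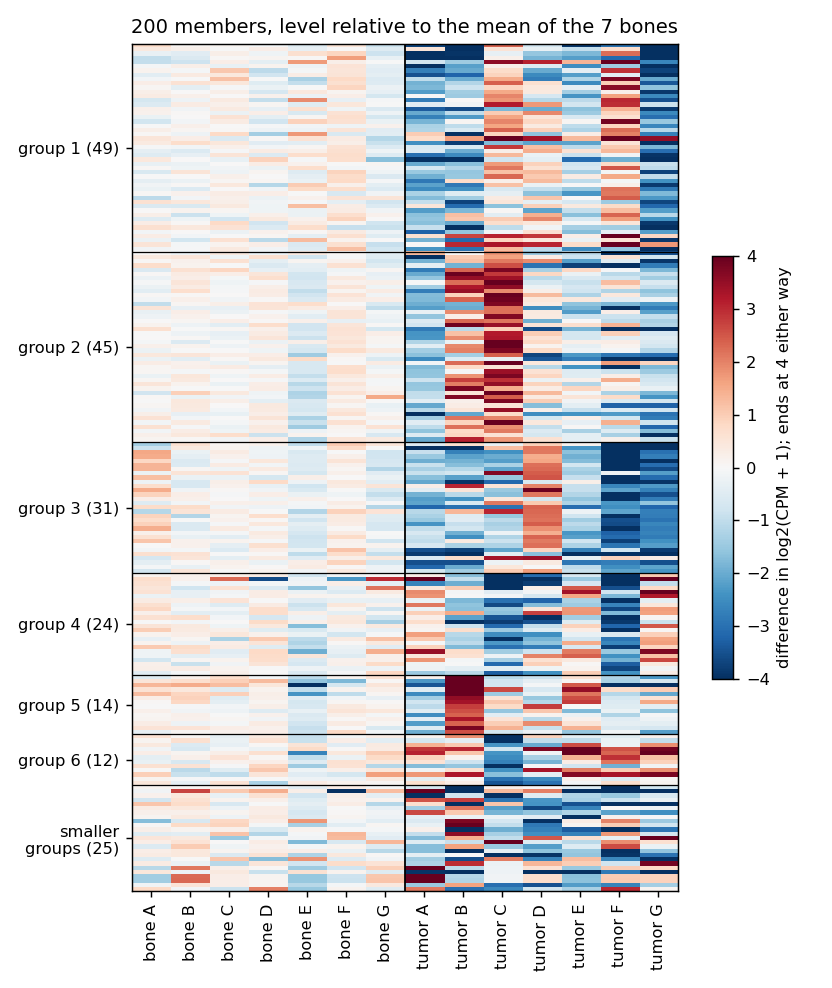
Rows are the 200 members in their groups and columns the 14 libraries; color is log2(CPM + 1) minus the mean of the 7 bones, with the scale ending at 4 in either direction. The bone columns are mostly pale, whereas in the tumor columns group 2 is high in C (median 2.91), group 3 in D (2.10) and group 5 in B (3.43), and groups 3 and 4 are lowest in F (-3.57 and -3.23).

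Group 3, with 31 members, included 4 genes known from the osteoclast, ACP5, MMP9, ATP6V0D2 and OCSTAMP. Relative to the mean of the bones, its median member was at -1.29 in A, -1.39 in B, -1.18 in C, 2.10 in D, -1.24 in E, -3.57 in F and -2.77 in G, so that tumor D stood above bone, tumor F held the least, and the remaining 5 lay below bone. On the TMM scale the medians of A and E were -0.73 and -0.75. In tumor D, 23 members were at least 2-fold above the bone of dog D, and 23 of the 31 had their highest tumor value there; 22 had their lowest in F. By bulk RNA, fewer osteoclasts and less of these RNAs per osteoclast cannot be told apart, here or for any cell type below.

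ACP5, the tartrate-resistant acid phosphatase used to stain osteoclasts, was between 1056 and 5022 CPM in the 7 bones (median 1544) and 641 in A, 409 in B, 452 in C, 4865 in D, 471 in E, 7.86 in F and 270.0 in G in the tumors. MMP9, the gelatinase that osteoclasts secrete, was between 1894 and 9458 CPM in the 7 bones (median 2879.5) and 1734 in A, 496 in B, 609.8 in C, 14196 in D, 1050.0 in E, 18.2 in F and 415 in G in the tumors. In tumor D MMP9 was above every bone and ACP5 above every bone but that of dog A, and for both genes tumor F was the lowest of all libraries and the other 5 tumors were below every bone. ATP6V0D2, a subunit of the proton pump that acidifies the resorption pit, was between 29.96 and 178 CPM in the 7 bones (median 73.4) and 27.9 in A, 30.6 in B, 15.4 in C, 340.1 in D, 28.6 in E, 0.172 in F and 4.86 in G in the tumors. OCSTAMP, a membrane protein required for osteoclast precursors to fuse, was between 22.9 and 88.3 CPM in the 7 bones (median 31.6) and 11.3 in A, 7.68 in B, 12.5 in C, 222 in D, 19.4 in E, 0.378 in F and 3.59 in G in the tumors. Each of the 4 had its highest value of all 14 libraries in tumor D except ACP5, whose highest was bone A (5022 CPM), and each its lowest in tumor F. As groups, tumor and bone did not pass the test for any of them, with log2 fold changes of -1.81 to -2.08 and FDRs of 0.234 to 0.310.

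Of a list of 13 osteoclast genes, 8 could be identified and all 8 passed the bone level; 4 were the members above and 1 of the 8 was called lower in tumor. Of the 4 that were not members, CTSK, TNFRSF11A and OSCAR each had their highest tumor in D. CTSK, cathepsin K, the main collagenase of the osteoclast, had 1080.4 to 4169 CPM in bones and 702 in A, 1346 in B, 598 in C, 7053 in D, 687 in E, 227 in F and 260.0 in G in tumors, ranking 300 by the difference of SDs. TNFRSF11A, the receptor RANK, had 23.4 to 69.2 CPM in bones and 76.6 in tumor D, and OSCAR, an osteoclast receptor, had 6.32 to 36.5 CPM in bones, 21.1 in tumor D, which is within the bones, and 0 in F. CALCR, the calcitonin receptor of mature osteoclasts, had another order: it was 5.59 to 19.7 CPM in bones and 0 to 1.13 in all tumors, at 0.982 in D. Summed over the 8 genes, the level was 3126 in A, 2316 in B, 1712 in C, 26775 in D, 2277 in E, 263 in F and 959.7 in G CPM in the tumors and 4355 to 19032 in the bones, the highest bone being that of dog A.

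MMP13, the collagenase 3 of osteoblasts and hypertrophic cartilage, was in the same group but with a different top: it was between 416 and 1123 CPM in the 7 bones (median 560.1) and 154 in A, 41.5 in B, 71.1 in C, 416 in D, 760.4 in E, 9.99 in F and 41.6 in G in the tumors, so that tumor E was within the bones and D close to the lowest bone. DPP4, a cell surface peptidase, had 96.4 to 276 CPM in bones and 39.7 in A, 41.3 in B, 32.7 in C, 452 in D, 45.5 in E, 0.653 in F and 7.88 in G in tumors, with D above every bone and the other 6 below. NEURL3, a ubiquitin ligase, had 9.77 to 38.2 CPM in bones, 89.6 in tumor D and 0.172 to 8.83 in the other tumors. PTPN22, a phosphatase of immune cell signaling, had 13.2 to 41.8 CPM in bones, 119.8 in tumor D and 0.893 to 10.9 in the rest. MEGF10, a receptor for engulfed cells, was less extreme, at 74.2 CPM in tumor D against 16.6 to 34.96 in bones and 1.99 to 23.5 in the other tumors. In DPP4, NEURL3, PTPN22 and MEGF10 tumor D stood alone above the bones. PPFIA2, a liprin of synaptic scaffolds, had 14.5 to 46.9 CPM in bones, was above all of them in tumors C (63.2) and D (119) and had 0 counts in F and G. Several other members of group 3 are known from neurons or muscle rather than osteoclasts, among them SLITRK3, EPHA5 and MYH15: SLITRK3 was at 45.4 CPM in tumor D and at most 0.653 in the other 6, against 2.98 to 13.9 in bones. The list of 18 skeletal muscle genes, of which 2 were identified, also had its highest sum in tumor D, 287 CPM against 14.5 to 75.4 in the other tumors and 0.957 to 26.8 in bones; the part of muscle in group 3 was not tested.

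The 49 members of group 1 included genes of the osteoblast and osteocyte. The median member was at -1.85 in A, -1.66 in B, 1.004 in C, 0.41 in D, -1.02 in E, 1.05 in F and -2.82 in G relative to the mean of the bones, so that tumors C and F were near or above bone, D close to it, and G, A, B and E below. In tumor G, 41 of the 49 were at least 2-fold below the bone of dog G and 28 had their lowest tumor value. The highest tumor was C for 21 members, F for 19 and D for 9. On the TMM scale the medians of A and E were -1.32 and -0.50, and G, A and B stayed below C, D and F.

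WIF1, a secreted inhibitor that binds Wnt ligands and a product of bone-forming cells, had the largest difference of SDs of the 11199 genes. It was between 1064 and 3256 CPM in the 7 bones (median 2125) and 151 in A, 5.402 in B, 9968 in C, 1148 in D, 133 in E, 253 in F and 16.3 in G in the tumors. Tumor C was above every bone, D was within the bones, and the other 5 were below every bone, the lowest being B at a log2 difference from its own bone of -8.38; the group test gave an FDR of 0.138. From a list of 15 secreted Wnt regulators, 8 were identified, 7 passed the bone level, WIF1 was the only member, and 2 (SOST and FRZB) were called lower in tumor. Without WIF1 the list summed to 1229 in A, 614 in B, 382 in C, 592 in D, 3292 in E, 132 in F and 1231 in G CPM in the tumors and 225 to 1641 in bones and the high value of tumor E was mostly that of SFRP2, at 3185 CPM.

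DMP1, a matrix phosphoprotein of osteocytes needed for mineralization, was between 229 and 1457 CPM in the 7 bones (median 469) and 14.9 in A, 2.68 in B, 518 in C, 124 in D, 98.1 in E, 51.2 in F and 1.72 in G in the tumors (log2 fold change -3.73, SE 0.91, FDR 0.0516). Tumor C was within the bones and the other 6 were below every bone. Of a list of 10 osteocyte genes, 6 were identified, 5 passed the bone level and 2, SOST and MEPE, were called lower in tumor. The 5 identified genes other than DMP1 summed to 103.3 to 3426 CPM in bones and 26.6 in A, 45.4 in B, 46.5 in C, 10.5 in D, 224 in E, 8.72 in F and 23.98 in G in tumors. This sum was below every bone in all tumors but E and was set in most bones by SOST and MEPE, whereas PHEX, at 28.7 CPM in tumor C, was within its bones (6.56 to 61.4), as DMP1 was. PHEX was also within its bones in tumors E (20.5 CPM) and F (6.63 CPM), where DMP1 was below every bone. PTH1R, the receptor of parathyroid hormone on osteoblasts and osteocytes, was between 217 and 561 CPM in the 7 bones (median 359) and 189.7 in A, 27.4 in B, 519 in C, 289 in D, 232 in E, 134 in F and 28.2 in G in the tumors. Tumors B and G were the lowest for this gene, and C, the highest tumor, was within the bones. From a list of 15 osteoblast and bone matrix genes 6 were identified and 5 passed the bone level, and 3 (BGLAP, SPP1 and DLX5) were called lower in tumor.

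NDNF, a secreted factor first described in neurons, had its top in tumor F: it was between 64.05 and 207 CPM in the 7 bones (median 101) and 5.53 in A, 6.51 in B, 90.9 in C, 38.4 in D, 31.8 in E, 538 in F and 1.43 in G in the tumors. PTPRD, a receptor tyrosine phosphatase, had 86.5 to 163 CPM in bones and 3.87 in A, 23.96 in B, 132 in C, 77.3 in D, 19.1 in E, 41.3 in F and 2.70 in G in tumors. DAPK2, a calmodulin-dependent death-associated kinase, had 46.01 to 115 CPM in bones and 6.14 in A, 7.72 in B, 149 in C, 12.7 in D, 16.5 in E, 60.7 in F and 1.08 in G in tumors. For NDNF the tumor above all bones was F, for DAPK2 it was C, and PTPRD had none. CLDN10, a claudin that forms ion-selective junction pores, had 26.3 to 82.9 CPM in bones, 73.1 in tumor F and 0.127 to 14.4 in the other 6 tumors. ASPM, KIF11, LEPR, LIFR and TFPI2, described above, belong to the same group, which thus mixes genes called in both directions: 2 higher and 2 lower. The G2 and M phase list without KIF11 summed to 484 in A, 1071 in B, 1127 in C, 825 in D, 228 in E, 2286 in F and 494 in G CPM in tumors and 80.9 to 186 in bones, with its highest value in F, next C and B; B was among the lowest tumors of the group's other genes.

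Group 2, with 45 members of which 8 have a symbol, was highest in tumor C. The median member was at -1.55 in A, 1.18 in B, 2.91 in C, 0.29 in D, -0.63 in E, -0.51 in F and -1.30 in G relative to bone, and the highest tumor was C for 33 members and B for the remaining 12. At least 2-fold above the bone of the same dog were 40 of the 45 in tumor C and 24 in tumor B, and 22 had their lowest tumor value in A. The median in C was 2.69 on the TMM scale, and those of A, E and G were -1.06, -0.19 and -0.93.

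OAS1, an interferon-induced enzyme that senses double-stranded RNA, was between 10.3 and 21.1 CPM in the 7 bones (median 18.1) and 15.2 in A, 83.9 in B, 465 in C, 22.8 in D, 19.3 in E, 55.7 in F and 30.6 in G in the tumors. IFI6, an interferon-induced mitochondrial protein, was between 6.06 and 25.2 CPM in the 7 bones (median 21.5) and 4.96 in A, 6.34 in B, 98.2 in C, 0.471 in D, 2.86 in E, 1.55 in F and 1.24 in G in the tumors. Both were far above the bones in C, but in the other tumors they parted: OAS1 was within or above the bones, and IFI6 was below the mean of the bones in all 6. From a list of 30 interferon response genes, 7 were identified, 4 passed the bone level, 2 were members and 0 were called in either direction by edgeR, where all 7 had an unadjusted p under 0.05; the DESeq2 Wald test called 6 higher and 1 lower, and limma-voom 2 higher. The 5 that were not members (OAS2, OAS3, OASL, ISG20 and DDX60) summed to 63.3 in A, 359 in B, 1028 in C, 56.8 in D, 54.2 in E, 164 in F and 84.1 in G CPM in tumors and 28.4 to 64.9 in bones. OAS2 was at 539 CPM in tumor C and 172 in B, against 20.97 to 51.2 in bones, and DDX60 at 237 and 80.5, against 0.702 to 4.21. Tumor C, then B, was the order for all 5 and OAS1; the third was F for OAS1, OAS2, OAS3, DDX60 and the sum, E for OASL and G for ISG20.

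CDH1, the E-cadherin of epithelial junctions, was between 14.7 and 37.1 CPM in the 7 bones (median 22.3) and 17.02 in A, 5.34 in B, 139 in C, 2.003 in D, 0.76 in E, 0.275 in F and 2.38 in G in the tumors. Tumor C was above every bone, A was within the bones, and the other 5 were below every bone. Of a list of 14 epithelial genes, 3 were identified; the other 2, EPCAM and PERP, were called lower in tumor and summed to 2.64 to 21.9 CPM in bones, 1.77 in tumor C, so they did not accompany CDH1 in C. MAOB, a mitochondrial monoamine oxidase, had 12.7 to 38.1 CPM in bones, 124 in tumor C and 0.0687 to 6.54 in the other tumors, the lowest being 2 counts in F. MPZL2, an adhesion protein of the immunoglobulin family, had 17.5 to 48.6 CPM in bones, 60.2 in C and 0.137 to 14.2 in the others. VEPH1, a protein with a pleckstrin homology domain, had 2.48 to 10.3 CPM in bones, 90.3 in C and 0.413 to 7.66 in the others. In these 3 genes C was above every bone and the other 6 tumors were below every bone, except D for VEPH1. LOC477699 had 58.7 to 151 CPM in bones and 14.7 in A, 61.6 in B, 72.6 in C, 7.54 in D, 12.3 in E, 2.16 in F and 2.32 in G in tumors, so that C and B were at bone level and 5 tumors below it. Of the members without a symbol, ENSCAFG00000010167 was at 1349 CPM in C and 219 in B, against 28.8 to 64.2 in bones, while ENSCAFG00000020204 was higher in B (255) than in C (117), against 8.96 to 22.6 in bones.

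Group 4, with 24 members, was low in tumors F and C and at or above bone in G, A and E. The median member was at 0.46 in A, -0.999 in B, -2.99 in C, -1.29 in D, 0.22 in E, -3.23 in F and 1.01 in G, and on the TMM scale the medians of G, A and E were 1.41, 1.02 and 0.72. In F 22 of the 24 and in C 19 were at least 2-fold below the bone of the same dog, and 17 had their lowest tumor value in F. The tumors that were high for group 1, C and F, were thus the low ones for group 4. ACE, the angiotensin-converting enzyme, was between 160.5 and 324 CPM in the 7 bones (median 219) and 185 in A, 63.4 in B, 26.97 in C, 22.9 in D, 92.1 in E, 4.26 in F and 169 in G in the tumors. APOA1, the main apolipoprotein of high-density lipoprotein, was between 36.9 and 102 CPM in the 7 bones (median 57.4) and 75.3 in A, 13.5 in B, 4.83 in C, 2.83 in D, 23.4 in E, 1.92 in F and 65.7 in G in the tumors. RAMP1, which pairs with the calcitonin receptor-like receptor, was between 10.3 and 44.9 CPM in the 7 bones (median 17.6) and 40.7 in A, 5.50 in B, 1.77 in C, 2.28 in D, 13.2 in E, 0.618 in F and 39.2 in G in the tumors. In all 3 genes tumors A and G were within the bones, E was within the bones or below them, and F was lowest. COL9A1, a chain of cartilage collagen IX, had 5.41 to 26.4 CPM in bones and 25.2 in A, 0 in B, 0.161 in C, 0.432 in D, 10.4 in E, 0.103 in F and 7.75 in G in tumors, with 0 counts in B and 3 counts each in C and F. GAS1, a hedgehog co-receptor, was among the members nearest to the threshold and, like ITGBL1 of the same group, had its top in E: it was at 46.1 to 122 CPM in bones and 24.3 in A, 31.5 in B, 5.95 in C, 11.7 in D, 137 in E, 12.02 in F and 83.2 in G in tumors. A list of 18 cartilage genes had 3 identified and COL9A1 as its member; the other 2, MATN3 and CHAD, summed to 106 in A, 7.72 in B, 98.98 in C, 145 in D, 551 in E, 18.2 in F and 38.1 in G CPM in tumors and 141 to 3339 in bones, which is not the order of group 4.

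Group 5 was a group of tumor B, with 14 members and 1 symbol. All 14 were at least 2-fold above bone in dog B, with a median of 3.43 relative to the mean of the bones, and 13 had their highest tumor value there; the other tumors had medians of -1.20 to 0.56, with E at 1.07 on the TMM scale. CCL5, the chemokine RANTES that T and NK cells release, was between 2.23 and 8.55 CPM in the 7 bones (median 6.13) and 3.57 in A, 177 in B, 38.9 in C, 3.14 in D, 72.4 in E, 9.72 in F and 12.1 in G in the tumors, so that 5 tumors were above every bone, B the highest, then E and C. From a list of 16 T and NK cell genes only CCL5 and IL7R could be identified; IL7R was at 0.232 to 0.882 CPM in bones and 0.566 in A, 7.55 in B, 15.5 in C, 0.432 in D, 0.791 in E, 1.10 in F and 3.37 in G in tumors, highest in C rather than B, and the part of T cells in this group was not tested. ENSCAFG00000000223 was at 537 CPM in tumor B and 1.21 to 15.6 in the other tumors, against 4.26 to 16.95 in bones. ENSCAFG00000049976 was at 507 CPM in tumor B and 0 to 4.20 elsewhere, against 0.405 to 10.9 in bones. The bone medians of this group were -0.81 in E and 0.04 to 0.32 in the others.

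Group 6, with 12 members, was low in tumor C. The lowest tumor was C for all 12, with a median of -2.60 relative to bone, D was at -0.70, and the other tumors were between 0.45 and 1.05, with A and E at 1.18 and 1.34 on the TMM scale. Its symbols are those of matrix genes: COL11A1, described above, COL12A1 and CPXM1. COL12A1, a collagen that binds the surface of fibrils, was between 138 and 622 CPM in the 7 bones (median 289) and 264 in A, 454 in B, 53.1 in C, 2890.5 in D, 1236 in E, 586 in F and 1036 in G in the tumors. CPXM1, a secreted member of the carboxypeptidase family, was between 6.69 and 47.6 CPM in the 7 bones (median 10.5) and 51.1 in A, 145 in B, 3.86 in C, 10.8 in D, 199 in E, 154 in F and 211 in G in the tumors. Neither passed the group test (FDR 0.27 and 0.187), and for both, as for COL11A1, tumor C was below every bone while every other tumor was within or above the bones. ENSCAFG00000004962, ENSCAFG00000031632 and ENSCAFG00000017221 had 0 counts in tumor C and 31.8 to 162, 39.1 to 66.04 and 19.3 to 74.6 CPM in the other tumors.

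**Figure D4:**
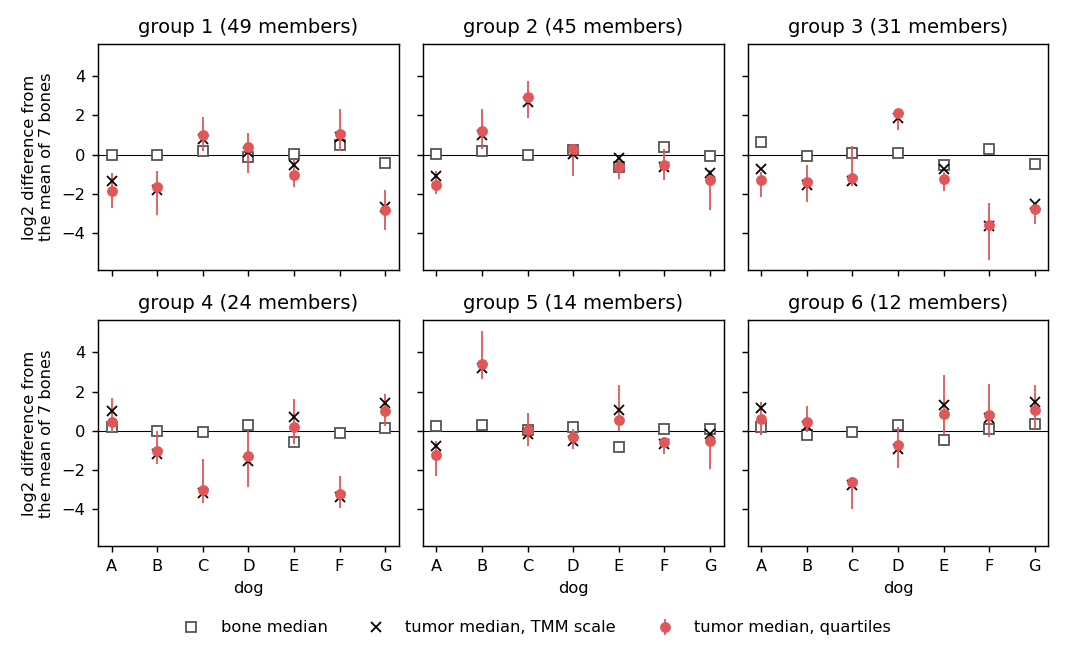
For each of the 6 groups, red points are the median over its members of log2(CPM + 1) minus the mean of the 7 bones in each tumor, with lines from the lower to the upper quartile of the members; open squares are the medians in the bone of the same dog and crosses the tumor medians on the TMM scale. Groups 2, 3 and 5 each stand out upward in 1 tumor (C, D and B), group 6 downward in C (-2.60), and the bone medians stay between -0.81 and 0.66.

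The 25 members outside these groups formed 7 small ones. IGF2, the insulin-like growth factor stored in bone matrix, was between 318 and 931 CPM in the 7 bones (median 829) and 211 in A, 25.4 in B, 551 in C, 223 in D, 245 in E, 21.3 in F and 229.8 in G in the tumors, lowest in F and B. It grouped with MAL, a myelin and membrane-raft protein, at 22.2 to 111 CPM in bones and 80.97 in A, 1.58 in B, 109.9 in C, 8.96 in D, 3.62 in E, 0.824 in F and 1.11 in G in tumors, with EFHD1, a calcium-binding mitochondrial protein, at 21.8 to 40.3 CPM in bones and 39.4 in A, 0.604 in B, 7.94 in C, 4.32 in D, 2.43 in E, 0.172 in F and 3.65 in G in tumors, and with 2 unnamed identifiers. All 3 named genes were below every bone in B, D, E, F and G. Of a list of 24 growth factors of the BMP, TGF-beta and IGF families 7 were identified, IGF2 was the member, and 4 of the 7 were called lower in tumor. From a list of 14 Schwann cell genes 11 were identified, MAL was the member and 7 were called lower; the 10 others summed to 166 to 579 CPM in bones and 82.1 in A, 126 in B, 38.1 in C, 30.1 in D, 51.5 in E, 48.2 in F and 45.2 in G in tumors, without the high value that MAL had in tumor C. VCAM1, an adhesion molecule for leukocytes, grouped with the cell adhesion genes KIRREL3 and CDH22. Its level was between 107 and 379.8 CPM in the 7 bones (median 317) and 192 in A, 256 in B, 8.53 in C, 15.7 in D, 83.8 in E, 15.8 in F and 31.8 in G in the tumors, with A and B at bone level. COL22A1, a collagen of tissue junctions, grouped with CLDN11 and was between 13.6 and 161 CPM in the 7 bones (median 41.7) and 16.7 in A, 3.05 in B, 193 in C, 6.60 in D, 109 in E, 6.87 in F and 1.91 in G in the tumors, highest in C and next E. A group of 4 was high in tumor A, with a median of 5.94 relative to bone: ENSCAFG00000032163, ENSCAFG00000032696 and ENSCAFG00000030655 were at 408, 394 and 288 CPM there and at most 11.7 in any other tumor. The counts of ENSCAFG00000032163 and ENSCAFG00000032696 differed by at most 0.138 on the log2 scale in any library, so their reads may be shared and the pair is uncertain as 2 genes.

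Part of the spread was all or none. At most 3 counts in at least 1 tumor were found for 26 of the 200 members, against 1.68% of the 11199 genes, and 24 of the 26 had more than 3 counts in every bone; 3 counts, the most that a count of 0 allows, were 0.0912 to 0.161 CPM depending on the tumor's depth, which covers counting error only. The selection required RNA in bone and favored a wide spread among tumors, which makes such genes likely among the members. Nothing is read from their excess over the 11199 genes. ENSCAFG00000046399, second by the difference of SDs, had 52.7 to 283 CPM in bones and 92.4 to 267 in tumors A to E, 0 counts in F and 12 counts in G. ENSCAFG00000040846 had 23.3 to 44.3 CPM in bones and 17.1 to 54.7 in 5 tumors, and 0 counts in B and G. ENSCAFG00000024514 had 36.4 to 94.95 CPM in bones and 20.8 to 43.6 in 5 tumors, and 0 counts in A and C. ENSCAFG00000016113 had 20.7 to 41.9 CPM in bones and 23.3 to 35.7 in 6 tumors, and 0 counts in E. In these 4 genes the tumors that held the RNA were within or near the range of the bones, and the spread came from the 1 or 2 tumors at or near 0. ENSCAFG00000003461 was of the same kind, with 57.8 to 96.2 CPM in bones, 46.7 to 94.5 in 5 tumors and 0.134 and 0.137 in B and F. ENSCAFG00000034058 differed in that a bone also lacked it: it had 0 counts in bone F and in tumors B, E, F and G, and 3808 CPM in tumor A. The study describes the last of these as a long non-coding RNA; the other identifiers have no name in the sources used here.

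**Figure D5:**
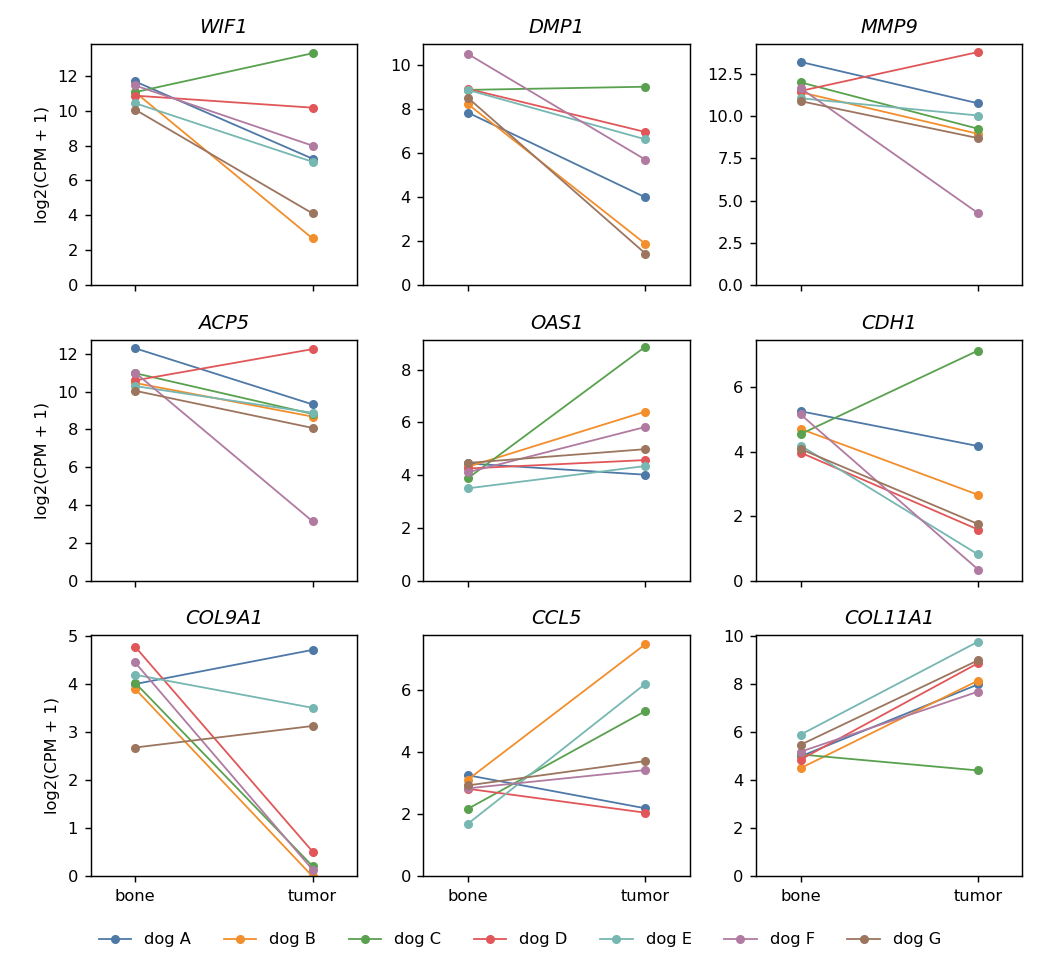
Level of 9 members in the bone and tumor of each dog, as log2(CPM + 1), with a line joining the libraries of a dog (colors). In bone the 7 dogs span about 5-fold for MMP9 and ACP5 and less for WIF1, whereas in tumor WIF1 runs from 5.40 CPM in dog B to 9968 in dog C, MMP9 and ACP5 are highest in dog D and lowest in dog F, OAS1 and CDH1 are highest in dog C, CCL5 in dog B, and COL11A1 is above bone in every dog but C.

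Lists of markers of other cell types held few or no members. Of a list of 15 adipocyte genes 13 were identified, 0 were members and 13 were called lower in tumor, with sums of 469.7 to 4463 CPM in bones and 115 to 394 in tumors. Of 14 endothelial genes 4 were identified, 0 were members and 3 were called lower, with sums of 308 to 980.4 CPM in bones and 80.9 to 248 in tumors. Of 19 fibroblast and tendon genes 4 were identified, 0 were members and 2 were called lower, with sums of 2738 to 9116 and 1279 to 2997 CPM. Single genes of these lists also varied among tumors, such as FABP4, a fatty acid carrier of adipocytes, at 0.343 to 131 CPM in tumors and 183 to 1849 in bones, and since membership subtracts the spread in bone, a gene outside the members was not thereby steady among tumors. From a list of 19 matrix proteases 8 were identified; MMP9 and MMP13 were the members, and 4 of the others, among them MMP14 and PLAUR, were called higher and 1 lower. Macrophage and MHC class II genes could not be read, since 0 of their symbols were paired with an identifier, so the immune content of the tumors is described only by the few genes above.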

How the data were processed

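RNA of 1 tumor and 1 bone from each of 7 dogs was sequenced. The deposited table holds raw read counts per Ensembl gene, 1 column per library, with no replicates pooled. Per the submitters' processing notes the authors used FastQC 0.10.1, Trimmomatic 0.39, HISAT2 2.2.1 with CanFam3.1 and StringTie 1.3.3; strand and multi-mapping settings are not given in the sources used here, so near-identical genes may share counts. Symbols came from names paired with identifiers in the study's supplementary tables.

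Counts were scaled to CPM by library totals in Python 3.11.15. The tumor and bone groups were compared with edgeR 4.0.16 (R 4.3.3) by its quasi-likelihood test, with TMM scaling, dog and tissue as covariates and the 27655 genes with at least 1 count, with Benjamini-Hochberg adjustment; calls had a base mean above 10, an absolute log2 fold change above 1 and an FDR below 0.05. DESeq2 1.42.0 and limma 3.58.1 served as alternatives, as did other scalings, pseudocounts, filters and measures of spread and leaving out each dog. The scripts were tested on simulated data. Libraries with the same letter came from the same dog, so the dog was a block; over 11199 genes the deviations of tumor and bone of a dog had a correlation of 0.0843 to 0.223. Each dog is 1 replicate, and the p-values measure the spread between these 7 dogs.

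The members and gene lists were chosen with earlier results of these data known. Named genes were the 30 members with the largest difference of SDs (identifiers without a symbol only where they lead a group), up to 6 members with a symbol per group closest to its mean profile, members on a gene list, those at the threshold, the 5 with the largest and the 5 with the smallest mean difference between tumor and bone, and those called. PTH1R, SLITRK3, EPHA5, MYH15, VCAM1, KIRREL3, CDH22, COL22A1, EFHD1, the members described as near 0 in some tumors, those of the group high in tumor A, and genes that are no members were named after their values were seen. Some genes are not reported here.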

Additional observations from a re-analysis of the deposited data

Results flagged for a closer look

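In each set of 7 libraries the lowest and the highest value were compared with the nearest other value, as a share of the range. This share passed the 95% critical value of Dixon's test for 7 values in 16 of the 144 sets examined. Chance gives about 1 in 20 for unselected and independent sets. Most of these sets are not of that kind, since the spread in bone and in tumor chose the members and the groups were built from the tumor values. The 16 are therefore not read against that rate. The members were selected on a wide spread in tumors, so a tumor that stands apart is part of how they were found; of the 64 named members, 6 had a bone and 6 a tumor that stood apart.

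Among the bones, bone F stood apart for ENSCAFG00000034058, where it had 0 counts (share of the range 0.6933), and for DMP1, where it was the highest (0.5939). Bone A was apart for ACP5 (0.5715), being the highest, bone E for IFI6 (0.6419) and bone G for COL9A1 (0.5826) and IGF2 (0.5683), being the lowest. Among the tumors, B stood apart upward for ENSCAFG00000000223 (0.6326) and ENSCAFG00000049976 (0.7355), A downward for ENSCAFG00000042696 (0.663), where it had 6 counts against 1121 or more in the others, and C for IFI6 (0.6183) upward and for ENSCAFG00000004962 (0.6853) and COL11A1 (0.6122) downward.

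The medians of the groups of members gave 4 more. Tumor D was apart for group 3 (0.5786) and tumor B for group 5 (0.618), both upward. Bone E was apart for group 2 (0.5697) and group 5 (0.7526), and this is the library in which 1 gene took 29.5% of the counts; its part in these medians was not tested.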

How the results depend on the processing

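Of the 200 members, 137 were again among the 200 with TMM-scaled CPM, 144 and 155 with pseudocounts of 0.1 and 5, 159 with a bone minimum of 10 CPM, 141 after a variance stabilizing transformation and 138 to 163 without 1 dog. The list depended most on the bone minimum, with 128 kept at 1 CPM, and on the measure of spread, with 74 kept by the median absolute deviation. Against 3 members called higher and 5 lower, the counts were 7 and 2 with no replicate block for dog, although libraries of a dog are paired by animal, 9 and 54 with the DESeq2 Wald test and 5 and 9 with limma-voom, and 9 were called lower after filterByExpr; leaving out 1 dog gave 1 to 4 higher and 1 to 12 lower. Of 96 alternative values for the 8 called members, 69 remained called, 27 did not pass and 0 changed sign. The pairs of member and dog at least 2-fold apart were 303 to 318 higher and 572 to 614 lower. The described groups held 141 members with complete linkage, 169 with Spearman's correlation, 172 on the TMM scale and 170 to 194 without 1 tumor. Of the pairs of members that shared a group, 30.8%, 56.5% and 87.7% still did under these 3, and 60.3% (without F) to 93.9% (without E) without 1 tumor. On the TMM scale, chosen after seeing the data, 27 of 42 medians of a group in a tumor moved by less than the spread of the bones and 1 changed sign, that of group 5 in tumor C (0.06 to -0.16). The cause of these shifts was not tested. With 1 library per tumor, no tumor's own value has a replicate error.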
